A study of Mus musculus with 48 samples.

Results

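Loaded knee joints that received a nanoparticle carrying either of 2 siRNAs (24 samples) were compared with loaded knee joints that received none (12 samples), which uses 36 of the 48 samples of the series. Members were chosen by sample title, with the siMMP13 and siNEG groups pooled at equal weight. The mice were C57BL/6 males, and 3 months is the age given for every group. The loaded joints shared an injury model of post-traumatic osteoarthritis, in which the knee is compressed without surgery in bouts of 500 cycles with a force of 9 N; bouts were given on 5 occasions a week during 4 weeks, and the mice were 8 weeks old at the first. One group of loaded joints had no treatment (n = 12), and the other groups were given polymer nanoparticles conjugated to an antibody against type II collagen, the main collagen of cartilage. The siRNA inside was directed against Mmp13, a collagen-degrading metalloproteinase (siMMP13, n = 12), or was a negative control (siNEG, n = 12). Healthy, unloaded and untreated joints (n = 12) entered the fit and are given as a reference level. RNA came from a mix, by equal mass, of synovium on one side and cartilage plus subchondral bone on the other, and was counted on a mouse inflammation panel. No group received the carrier empty and none received siRNA without it, so antibody, polymer, siRNA and the act of dosing cannot be told apart. Dose, route and the time from the last dose to harvest were not given in the sources used here. The labels do not say whether the 12 samples of a group were 12 animals, and the p-values therefore reflect sample-to-sample spread that could be partly technical.

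Small interfering RNA is a short RNA duplex that directs the cell to cut a matching messenger RNA, and nanoparticles are used to carry it past the cell membrane. Such particles are taken up largely by phagocytes, and RNA duplexes can be sensed by Toll-like receptors in endosomes and by cytosolic sensors, which switch on interferon-stimulated genes and inflammatory cytokines. A joint holds, besides cartilage and bone, a synovial lining with resident macrophages, fibroblasts, vessels and fat, each of which can express the chemokines, complement proteins and kinases that the panel counts.

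Of 196 genes tested, 2 passed an adjusted p of 0.05 between carrier-treated and untreated loaded joints, which is 1.02% of those tested. Of these, 1 was higher and 1 lower. Ccl19 was the higher one and was also called in each siRNA group alone. A further 24 genes had an unadjusted p under 0.05 and did not pass adjustment, so that 26 genes in all (13.3%) lay under that limit, 15 higher and 11 lower. The median absolute log2 difference over the 196 genes was 0.10, against a median standard error (SE) of 0.13. Myl2 was the 1 gene with a fitted log2 difference above 1 in either direction, whereas 35 genes exceeded that size between untreated loaded and healthy joints. That loading comparison called 91 genes (46.4%) and shares the untreated samples. When samples were scaled to their total count instead of the housekeeping genes, 7 genes were called, 1 higher and 6 lower. With TMM scaling (edgeR's trimmed mean of log ratios between libraries) 1 was called, which was Ccl19.

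Total gene counts ran from 111645 to 229976 (median 162624) in untreated and from 44738 to 302377 (median 128640) in carrier samples. The mean log2 total was 0.44 lower with the carrier (16.88 against 17.32; two-sided permutation test, 100000 resamples, p = 0.035). The siRNA groups were unlike in depth, with median totals of 116985 with siNEG and 148380 with siMMP13. Among the 6 housekeeping genes used for scaling, the carrier minus untreated log2 difference ran from -0.27 for Cltc to 0.23 for Pgk1. In 3 siMMP13 libraries and 1 healthy library a housekeeping gene lay more than 1 log2 unit from its usual share, and results were also computed without these 4. The part of depth and housekeeping shifts in the results was not tested beyond these alternatives.

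The 5′ end of Ccl19 is shown because it was the 1 gene called higher with the carrier. The sequence spans 250 bases before to 50 after the annotated start, at chr4:42756316-42756615 on the minus strand of GRCm38.p6, from RefSeq, read 5′ to 3′ along the gene. Capitals mark the 1 match found to a pair of GAAA runs with any 2 bases between them, the core of the element bound by interferon-activated factors.
Ccl19: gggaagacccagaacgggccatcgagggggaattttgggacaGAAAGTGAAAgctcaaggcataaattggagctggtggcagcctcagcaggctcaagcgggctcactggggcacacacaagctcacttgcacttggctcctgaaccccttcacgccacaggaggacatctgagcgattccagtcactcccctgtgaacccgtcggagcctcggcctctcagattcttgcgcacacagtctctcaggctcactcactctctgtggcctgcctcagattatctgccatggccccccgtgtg
The match begins 208 bases before the start. On either strand, 1131 of 32851 mouse promoters of this length (3.44%) hold such a pair, as do 10 of 187 panel promoters with a sequence (5.35%). TGANTCA, the letters of the AP-1 site, and TATAAA were searched on both strands and are not in this window; they occur in 7.81% and 13.6% of promoters. These matches describe the letters alone.

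Ccl19 encodes a ligand of the receptor Ccr7 that is made by stromal cells of lymphoid tissue and draws in T cells and dendritic cells. Its normalized count (the count divided by the sample's housekeeping scale) was 81.9 at the lowest, 115 at the median and 157 at the highest in untreated loaded joints. In siNEG joints these values were 102, 173 and 336, and in siMMP13 joints 137, 165 and 440. The groups overlapped: 23 of 24 carrier samples lay above the untreated median, and 17 of 24 above the highest untreated sample, 8 with siNEG and 9 with siMMP13. Of these, siMMP13 replicates 3, 5 and 9 lay barely above it, at 157.0 to 158.0 against 156.6. The pooled difference was 1.68-fold (log2 fold change 0.75 ± 0.13 SE, adjusted p = 0.0031), from 116 ± 24.4 to 196 ± 76.3 normalized counts (SD, n = 12 and n = 24). In the same fit and against the same untreated samples, siNEG gave 0.66 ± 0.16 (adjusted p = 0.035) and siMMP13 0.84 ± 0.17 (adjusted p = 0.0037). The difference between the siRNAs, 0.18 ± 0.20, was within its error (adjusted p = 0.55). Healthy joints ranged from 67.1 to 198 with a median of 136, and no difference between them and untreated loaded joints was called (-0.21 ± 0.15, adjusted p = 0.32). In bulk tissue, fewer cells of a type and less RNA per cell cannot be told apart, and the same holds for more.

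The Ccl19 call held without each of the 36 loaded samples in turn, with log2 differences of 0.68 to 0.80 and an adjusted p of at most 0.0097. Of the 3 siMMP13 libraries with a divergent housekeeping profile, 2 held the highest Ccl19 values of that group, at 440 and 305, and without all such libraries the pooled difference was 0.63 (adjusted p = 0.0028). The siNEG comparison alone depended more on the settings. It kept its Ccl19 call in 25 of 36 such fits and 13 of 23 other alternatives, and its adjusted p was 0.19 with TMM scaling and 0.17 with total-count scaling, at log2 differences of 0.59 and 0.58. The annotation holds 4 other Ccl19 copies on chromosome 4, 1 of them listed as protein coding and 3 as pseudogenes, which the probe may not separate.

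Other genes of the same axis are given for their values. Ccl21a, the other ligand of Ccr7, had a median of 1451 normalized counts without and 2031 with the carrier (0.33 ± 0.28, adjusted p = 0.93), and near-identical Ccl21 copies make its level uncertain. Ccr7 had medians of 36.8 and 34.2 (-0.03 ± 0.11, adjusted p = 0.98). Of 11 genes listed for lymphoid homing and antigen presentation, 8 were tested, 1 rose (Ccl19) and none fell. Their median log2 difference, with Ccl19 included, was 0.28, against 0.02 over all genes tested. By siRNA, the median of these genes was 0.14 with siNEG and 0.30 with siMMP13. Ccl19 stood alone among them as a call, and the summed level of 5 markers of lymphocytes and antigen presentation had medians of 1280 without and 1650 with the carrier, with ranges of 1090 to 1830 and 1220 to 2130. By siRNA, the median of that sum was 1430 with siNEG and 1800 with siMMP13. The sum adds normalized counts, and H2-Eb1 alone made up most of it. None of these 5 markers was called in the pooled comparison, though Cd86 and H2-Eb1 were called with siMMP13 alone. The part of these markers in the Ccl19 difference was not tested.

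**Figure D1:**
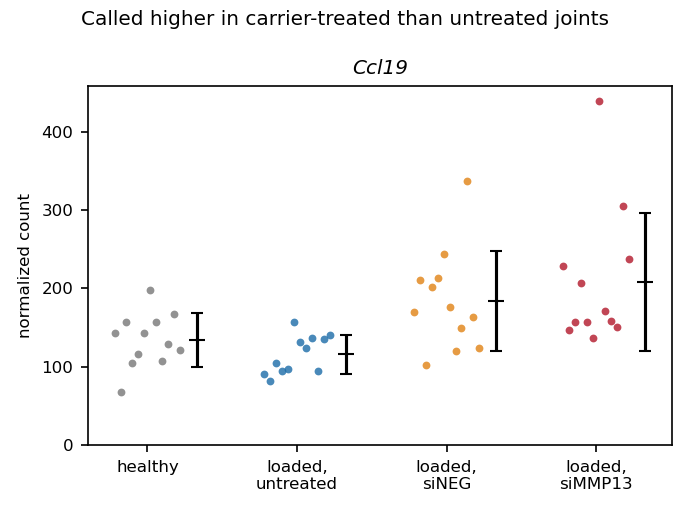
Normalized counts (y axis) of Ccl19, called higher in carrier-treated than in untreated loaded joints, by group (x axis), with 1 point per sample and a bar at the group mean ± SD (n = 12 per group). Ccl19 was above the highest untreated sample in 17 of 24 carrier samples.

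Among kinases and transcription factors that respond to growth signals and stress, Mapk14, Myc and Limk1 had small pooled differences. Mapk14, the stress kinase p38 alpha, had medians of 514 and 473 (-0.16 ± 0.06, adjusted p = 0.32). The growth-responsive transcription factor Myc had medians of 464 and 385 (-0.21 ± 0.08, adjusted p = 0.15), and Limk1, a kinase of the actin cytoskeleton, gave 0.13 ± 0.06 (adjusted p = 0.75). Of 13 listed growth-responsive factors, 12 were tested and none was called, at a median of -0.07. By siRNA, that median was -0.135 with siMMP13 and 0.044 with siNEG.

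Pooling the siRNAs added no gene that edgeR called in neither group alone. Against the same untreated samples, siMMP13 alone had 7 calls (3.57% of 196) and siNEG alone had 3 (1.53%). Ccl19 was in both sets. Between the siRNA groups themselves 12 genes were called (6.12%). The other genes called with a single siRNA are given next with both values, since their pooled differences average unlike groups.

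Traf2, an adaptor of TNF receptor signalling, was called with siNEG alone. Its range was 76.1 to 111 normalized counts without the carrier, 102 to 132 with siNEG and 83.6 to 113 with siMMP13. It rose by 0.31 ± 0.06 with siNEG (adjusted p = 0.023), gave 0.07 ± 0.07 with siMMP13 (adjusted p = 0.65) and 0.19 ± 0.05 pooled (adjusted p = 0.15). All 12 siNEG samples were above the untreated median of 92.8, as were 7 of 12 siMMP13 samples. The siMMP13 minus siNEG difference was -0.25 ± 0.06 (adjusted p = 0.043), and -0.22 without the divergent libraries (adjusted p = 0.11). Both calls depended on the scaling: with TMM the siNEG value was 0.27 (adjusted p = 0.19) and the difference between the siRNAs -0.14 (adjusted p = 0.30). The siNEG call was lost in 8 of 23 alternatives and the call between the siRNAs in 11 of 23, as it was without 15 of 36 single samples.

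The remaining genes were called with siMMP13 alone, and 3 of them also differed between the siRNAs. Il1rap, the shared accessory chain of the interleukin-1 receptor, had medians of 108 without the carrier, 106 with siNEG and 89.0 with siMMP13; all 12 siMMP13 samples and 7 of 12 siNEG samples were below the untreated median. Its log2 differences were -0.36 ± 0.06 with siMMP13 (adjusted p = 0.0077) and -0.05 ± 0.07 with siNEG (adjusted p = 0.96), and the siRNAs differed by -0.31 ± 0.07 (adjusted p = 0.028). Myc fell by 0.35 with siMMP13 (SE 0.09, adjusted p = 0.0097) and gave -0.07 ± 0.09 with siNEG (adjusted p = 0.92), with a difference between the siRNAs of -0.28 ± 0.07 (adjusted p = 0.043). Both siMMP13 calls were kept in 22 of 23 alternatives, the exception being scaling without Tubb5. The calls between the siRNAs were lost with TMM scaling (-0.20 for Il1rap, adjusted p = 0.17, and -0.17 for Myc, adjusted p = 0.23), in 6 of 23 alternatives for Il1rap and 13 of 23 for Myc. They were also lost without 20 of 36 single samples for Myc and without 4 for Il1rap (siMMP13 replicates 7 and 12, siNEG replicates 7 and 10). For both genes the pooled value, -0.20 ± 0.05 for Il1rap and -0.21 ± 0.08 for Myc, averaged a larger siMMP13 and a smaller siNEG difference.

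Tyrobp, a signalling adaptor of myeloid receptors, had group medians on either side of the untreated one: 6317 without the carrier, 5520 with siNEG and 8588 with siMMP13. Its pooled difference of 0.25 ± 0.11 (adjusted p = 0.44) averaged 0.63 ± 0.16 with siMMP13 (adjusted p = 0.0097) and -0.12 ± 0.11 with siNEG (adjusted p = 0.92), which differed by 0.75 ± 0.17 (adjusted p = 0.0023). Without the divergent libraries the siMMP13 value was 0.32 (adjusted p = 0.13) and the difference between the siRNAs 0.44 (adjusted p = 0.025). Trem2, a lipid-sensing receptor that signals through Tyrobp, had a pooled value of -0.04 ± 0.15 (adjusted p = 0.98), made of 0.29 ± 0.18 with siMMP13 and -0.38 ± 0.17 with siNEG.

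For the other 2 genes the siRNAs were not separated by a test. Cd86, a costimulatory molecule of antigen-presenting cells, rose by 0.60 ± 0.16 with siMMP13 (adjusted p = 0.010) and gave 0.16 ± 0.11 with siNEG (adjusted p = 0.92), with a difference of 0.44 ± 0.17 (adjusted p = 0.086). Without the divergent libraries its siMMP13 value was 0.37 (adjusted p = 0.088). H2-Eb1, an MHC class II chain that presents antigen to T helper cells, ranged from 722 to 1286 without the carrier, 760 to 1391 with siNEG and 979 to 1529 with siMMP13. It rose by 0.44 ± 0.09 with siMMP13 (adjusted p = 0.027) and gave 0.11 ± 0.11 with siNEG (adjusted p = 0.92), with a difference of 0.33 ± 0.10 (adjusted p = 0.12). The siMMP13 call was lost without siMMP13 replicate 2, 7 or 12 or untreated replicate 1, 2 or 4 (log2 differences of 0.41 to 0.49 over all 36 omissions, adjusted p up to 0.066) and in 5 of 23 other alternatives, the replicate block among them (0.44, adjusted p = 0.068). The siMMP13 range of H2-Eb1 lay above the untreated one at both ends, while its siNEG range nearly coincided with it.

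**Figure D2:**
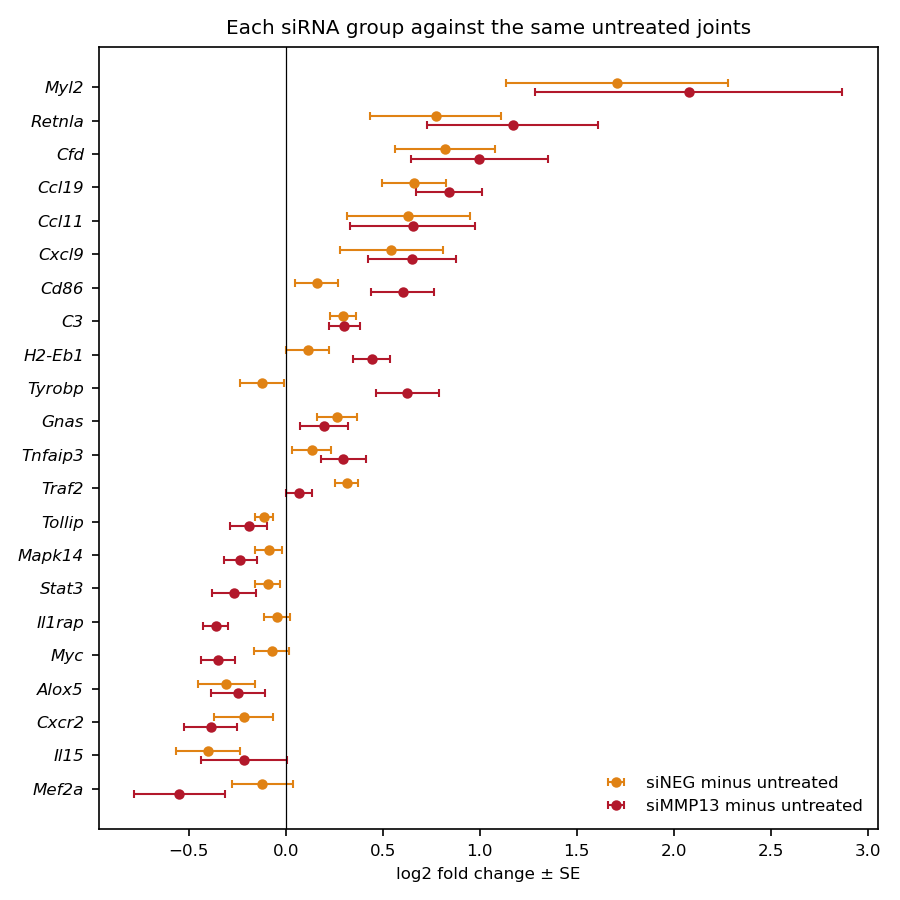
Log2 differences from the same 12 untreated loaded samples (x axis, points with bars of ± 1 SE) for siNEG (orange) and siMMP13 (red), by gene (y axis), for genes of the naming rule with an unadjusted p under 0.05 in the pooled comparison and for Tyrobp, added because siMMP13 alone called it. Ccl19 had siNEG and siMMP13 values that differed by less than 1 SE of their difference, whereas Tyrobp, Il1rap, Myc and Traf2 did not.

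Complement genes held some of the largest pooled differences that did not pass. C3, the central complement protein, ranged from 1337 to 2183 normalized counts with a median of 1904 without the carrier, and from 1899 to 2892 with a median of 2241 with it. Of the carrier samples, 23 of 24 were above the untreated median and 15 above the highest untreated sample. The pooled difference was 0.30 ± 0.06 (adjusted p = 0.15), and the 2 siRNAs gave the same value, 0.30 ± 0.07 for siNEG and 0.30 ± 0.08 for siMMP13. With only the 36 loaded samples fitted, C3 was called (adjusted p = 0.0067 pooled, 0.011 for siMMP13 and 0.037 for siNEG). Healthy joints had a wider range, 1699 to 4774, and are left out of that fit's estimate of spread. Untreated loaded joints were 0.53 ± 0.14 below healthy joints (adjusted p = 0.00023).

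Cfd encodes complement factor D, or adipsin, a serine protease of the alternative pathway that is made in large amounts by fat cells. Its median was 900 without the carrier (315 to 1374), 1574 with siNEG (661 to 3061) and 1627 with siMMP13 (340 to 4076). The groups overlapped widely, with 17 of 24 carrier samples above the untreated median and 13 above the highest untreated sample. The pooled difference was 0.91 ± 0.25 (adjusted p = 0.15), 0.82 ± 0.26 with siNEG and 1.00 ± 0.35 with siMMP13. Without the divergent libraries it was called (1.05, adjusted p = 0.029). As Cfd was the 1 adipocyte marker on the panel, the share of fat tissue in a sample and the Cfd level per fat cell cannot be told apart. Healthy joints had a median of 2761, and untreated loaded joints were 1.53 ± 0.36 below them (adjusted p = 0.00021). C7, a component of the membrane attack complex named after its values were seen, had medians of 23.8 and 57.2 (0.89 ± 0.34, adjusted p = 0.15). Of 21 listed complement genes with a probe, 14 were tested and none was called, at a median log2 difference of 0.20. By siRNA, that median was 0.24 with siNEG and 0.04 with siMMP13.

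Myl2, the regulatory light chain of slow muscle myosin, had the largest fitted difference. Its normalized counts ran from 15.2 to 520 with a median of 39.7 without the carrier, from 64.3 to 915 with a median of 265 with siNEG, and from 22.1 to 2198 with a median of 286 with siMMP13. The scatter within each group exceeded a factor of 10, and 7 of 24 carrier samples lay above the highest untreated one. The pooled difference was 1.89 ± 0.58 (adjusted p = 0.15), and DESeq2's Wald test called it (adjusted p = 0.046). Without untreated replicate 7, the highest untreated sample, it was 2.45 (adjusted p = 0.049). Myl2 and Ppp1r12b, the 2 muscle markers, summed to 62.6 to 775 (median 133) without and 66.2 to 2380 (median 356) with the carrier, and neither was called. With log2 Myl2 as a covariate, Ccl19 was at 0.86 (adjusted p = 0.00083), against 0.75 without it. That fit called 7 genes in all, 4 higher and 3 lower. The part of muscle content in the Ccl19 difference was not tested, as Myl2 itself was fitted higher with the carrier.

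**Figure D3:**
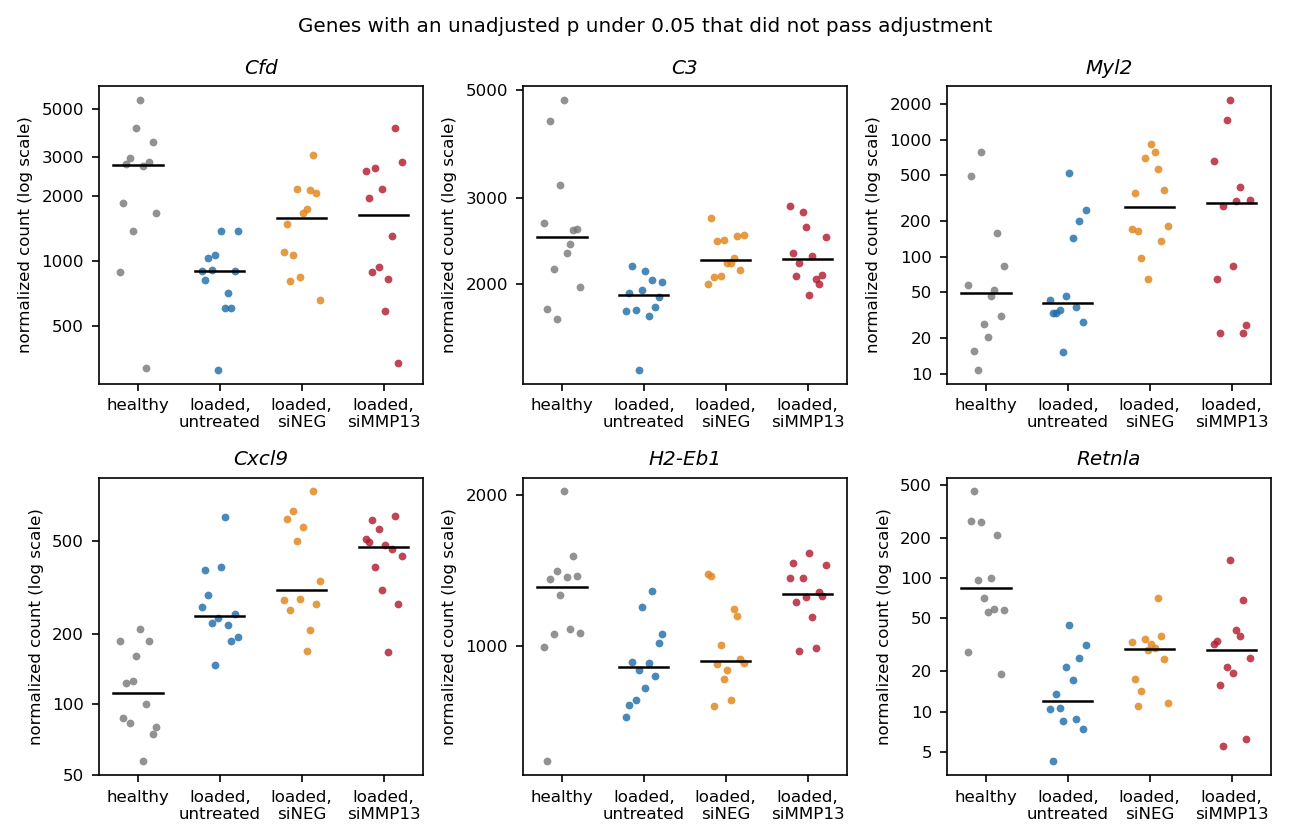
Normalized counts on a log scale (y axis) by group (x axis) for 6 genes with an unadjusted p under 0.05 and an adjusted p above 0.05 in the pooled comparison, with 1 point per sample and a bar at the group median (n = 12 per group). C3 was above the untreated median in 23 of 24 carrier samples, and Myl2 spread over more than a factor of 10 in every group.

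Among inflammatory chemokines, 14 of 18 were tested and none was called, at a median log2 difference of 0.18. By siRNA, that median was 0.07 with siNEG and 0.24 with siMMP13. Cxcl9, an interferon-gamma-induced T-cell attractant, ranged from 147 to 628 (median 239) without and from 166 to 814 (median 444) with the carrier, and gave 0.60 ± 0.21 (adjusted p = 0.15). Ccl11, the eosinophil attractant eotaxin, ranged from 29.2 to 203 (median 107) without and from 55.8 to 427 (median 170) with it, and gave 0.64 ± 0.27 (adjusted p = 0.32). The carrier ranges overlapped nearly all of the untreated ranges for both. For Cxcl9 and Ccl11, unlike the list median, the siRNAs gave similar values. These were 0.54 ± 0.27 and 0.65 ± 0.23 for Cxcl9 and 0.63 ± 0.32 and 0.65 ± 0.32 for Ccl11 (siNEG first).

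Genes that sense nucleic acids were examined because the carrier holds RNA duplexes. Of 10 listed sensors and adaptors with a probe, 9 were tested, and edgeR called 0 of them, with 0 at an unadjusted p under 0.05. Their median log2 difference was 0.07, with a range of -0.03 to 0.17. Tlr7, the endosomal receptor for single-stranded RNA, ranged from 62.5 to 152 without and from 38.6 to 215 with the carrier (0.07 ± 0.15, adjusted p = 0.98). Nod2, an intracellular sensor of bacterial peptides, gave 0.17 ± 0.14 (adjusted p = 0.93), and the transcription factor Irf3 gave 0.16 ± 0.14 (adjusted p = 0.94) at medians of 14.3 and 16.7, close to background. Tlr3, the receptor for double-stranded RNA, was below the count filter and was not tested. The 9 tested genes thus leave out the Toll-like receptor for RNA duplexes, and include Nod2, which does not sense nucleic acids. Not every listed sensor or adaptor had a probe. These counts therefore leave much of the sensing of RNA duplexes uncovered. The low counts of Irf3 and Nod2 limit the differences that could be detected at this depth.

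Interferon response genes were likewise not called: 15 of 18 were tested, edgeR called 0, 0 had an unadjusted p under 0.05, and the median was 0.04. Mx2, an antiviral GTPase, had medians of 73.3 without and 72.7 with the carrier (0.29 ± 0.18, adjusted p = 0.78). Oas2, which makes the signal that activates RNase L, had medians of 201 and 173 (-0.25 ± 0.16, adjusted p = 0.87). Both genes had been higher in untreated loaded than in healthy joints, by 1.25 ± 0.17 for Mx2 and 1.98 ± 0.24 for Oas2 (adjusted p = 3.0e-05 and 2.2e-08), a comparison that uses the same untreated samples.

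The main inflammatory cytokines and the matrix and prostanoid enzymes had differences within about 2 SE, other than Il6. Il1b ranged from 181 to 321 without and from 149 to 804 with the carrier (0.16 ± 0.13, adjusted p = 0.94), and its antagonist Il1rn gave 0.07 ± 0.12 (adjusted p = 0.98). Tnf had medians of 65.9 and 69.0 (0.16 ± 0.12, adjusted p = 0.93). Il6 had low normalized medians of 19.2 and 24.4 (0.42 ± 0.18, adjusted p = 0.41). Negative controls averaged 7.52 raw counts in untreated and 7.05 in carrier samples (5.62 with siNEG and 8.47 with siMMP13). These raw counts are not scaled by the housekeeping genes, so they are not on the scale of the Il6 medians. Of 13 genes of these families 12 were tested and none was called, at a median of 0.01; Stat3, the transcription factor downstream of interleukin-6, gave -0.18 ± 0.07 (adjusted p = 0.32). Mmp3, the metalloproteinase stromelysin, ranged from 544 to 2868 without and from 132 to 4509 with the carrier (0.10 ± 0.32, adjusted p = 0.98). Mmp9, a gelatinase of neutrophils and osteoclasts, gave 0.19 ± 0.16 (adjusted p = 0.90), and Ptgs2, the inducible cyclooxygenase, gave -0.07 ± 0.27 (adjusted p = 0.98). The wide SE of Mmp3 and Ptgs2 leaves room for differences in either direction.

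Macrophage and granulocyte genes were examined as cells that take up particles. Of 14 myeloid genes 13 were tested and none was called, at a median of 0.01. Summed over 7 macrophage markers, counts ran from 11500 to 16900 (median 14100) without and from 10400 to 24500 (median 14500) with the carrier. By siRNA, the medians of this sum lay on either side of the untreated one, at 13000 with siNEG and 17200 with siMMP13. The median log2 difference of the 13 tested genes was -0.05 with siNEG and 0.07 with siMMP13. Tyrobp, with a large share of the sum, had its highest siMMP13 values (11871 to 19828) in the 3 libraries with a divergent housekeeping profile. Retnla, a marker of alternatively activated macrophages, gave 0.97 ± 0.33 (adjusted p = 0.27) and was close to background: 6 of 12 untreated and 17 of 24 carrier samples exceeded the negative controls. Arg1, an arginine-degrading enzyme of the same state, gave 0.12 ± 0.42 (adjusted p = 0.98), and Tlr2, a receptor for bacterial lipoproteins, gave 0.19 ± 0.07 (adjusted p = 0.49). Of 8 granulocyte-linked genes 6 were tested and none was called, at a median of 0.03. Cxcr2, the neutrophil chemokine receptor, had medians of 493 and 367 (-0.30 ± 0.13, adjusted p = 0.27), and Alox5, which starts leukotriene synthesis, had 201 and 160 (-0.28 ± 0.13, adjusted p = 0.32).

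The other lists held no call. NF-kB and death domain genes (13 of 14 tested) had a median of -0.01, with Tnfaip3, a feedback inhibitor of NF-kB, at 0.22 ± 0.09 (adjusted p = 0.32). Surface Toll-like receptors and other innate sensors (14 of 14) had a median of -0.12, with Tollip, an inhibitory adaptor, at -0.15 ± 0.06 (adjusted p = 0.32). The MEF2 and muscle list (6 of 7) had a median of 0.00, with Mef2a, a muscle and stress-responsive transcription factor, at -0.34 ± 0.17 (adjusted p = 0.32). Prostanoid and leukotriene genes (12 of 14) had a median of -0.03, with Ptger2, a prostaglandin E2 receptor, at -0.12 ± 0.10 and Ltb4r1, a leukotriene B4 receptor, at -0.15 ± 0.13 (adjusted p = 0.87 each). G proteins, small GTPases and protein kinase C (13 of 15) had a median of 0.00, with the stimulatory G protein Gnas at 0.23 ± 0.10 (adjusted p = 0.27) and the exchange factor Rapgef2 at 0.09 ± 0.05 (adjusted p = 0.87). Oxidative stress genes (8 of 8) had a median of 0.02, with the antioxidant regulator Nfe2l2 at 0.08 ± 0.03 (adjusted p = 0.89) and the hypoxia factor Hif1a at -0.08 ± 0.17 (adjusted p = 0.98). Growth factors and matrix enzymes (9 of 10) had a median of -0.02, with Pdgfa at 0.14 ± 0.12 (adjusted p = 0.94). Hematopoietic cytokines (4 of 20) had a median of 0.07, with Il15 at -0.31 ± 0.16 (adjusted p = 0.36) and Il12a at 0.09 ± 0.11 (adjusted p = 0.94). Several of these pooled medians lay between siRNA medians of opposite sign. The MEF2 and muscle list was at -0.22 with siMMP13 and 0.21 with siNEG. In the same order, oxidative stress genes were at -0.14 and 0.11 and G proteins at -0.11 and 0.07. Growth factors and matrix enzymes were at -0.07 and 0.17. Of the 18 lists, 16 had 0 calls by edgeR. Of these 16, DESeq2's Wald test also gave 0 in 15, limma with either pseudocount in 16, and limma with array weights, which called 17 genes, in 6.

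**Figure D4:**
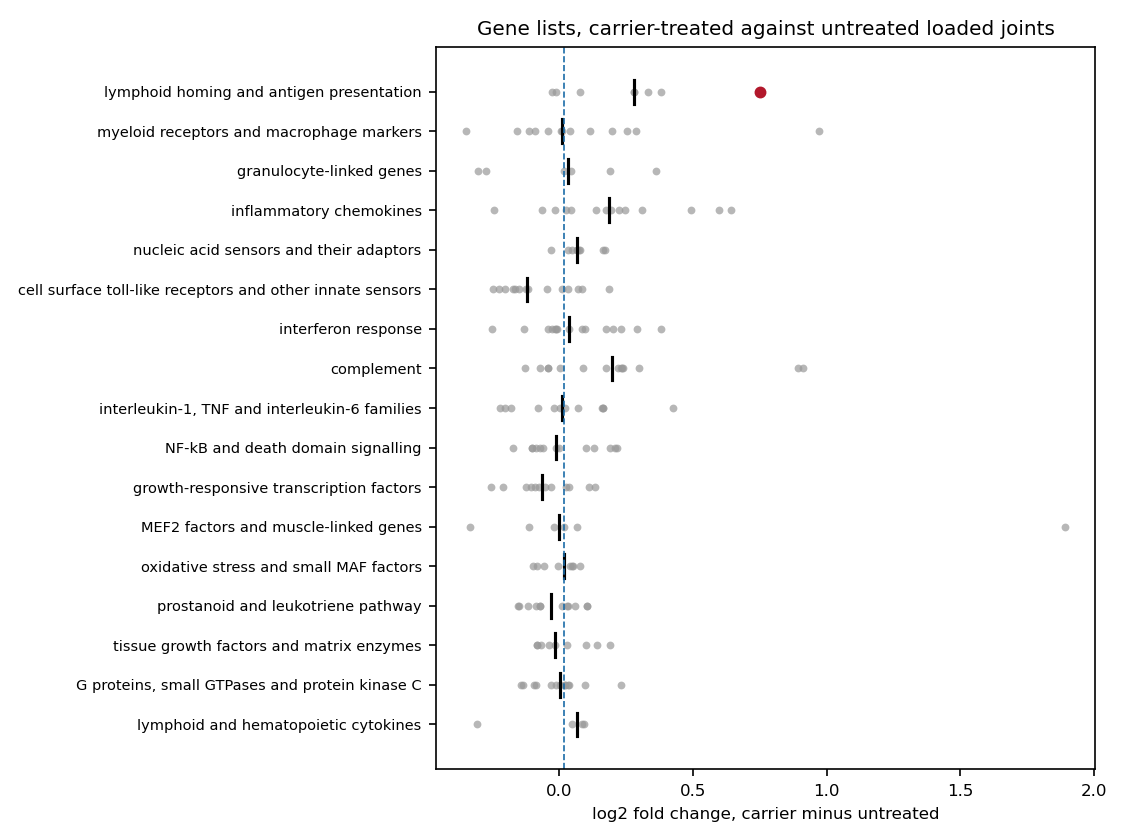
Log2 difference of carrier-treated against untreated loaded joints (x axis) for the tested members of 17 lists (y axis), with 1 point per gene, a black bar at the list median, the called gene in red and a dashed line at the median of all genes tested (0.02). Most members lay close to 0; Ccl19 (0.75) was the 1 call among them.

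Several limits bear on these values. Mmp13 was not among the probes analysed here, so delivery of the siRNA could not be read from its target. No probe for Col2a1, Acan or Bglap was among them either, so the labelled cartilage and bone could not be checked against defining markers.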

How the data were processed

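Knee-joint RNA was counted on a NanoString nCounter mouse inflammation panel, version 2, in 48 samples, which the titles place in 4 groups of 12. The authors deposited whole-number counts per probe (268 probes: 248 endogenous, 6 housekeeping, 6 positive and 8 negative controls), and no normalization or background subtraction is recorded in the sources used here. No value was 0 and 142 were 1. Scaling divided each sample by a factor proportional to the geometric mean of its 6 housekeeping genes (Tubb5, Pgk1, Hprt, Gusb, Gapdh and Cltc). Genes with over 20 counts in at least 12 of 48 samples were tested (196). Total gene counts per sample ran from 36415 to 302377. Gene symbols and the promoter were matched to RefSeq tables of GRCm38.p6: of 254 gene probes, 247 matched a current symbol, 6 a synonym and 1 none.

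Genes were tested with edgeR 4.0.16 (quasi-likelihood, R 4.3.3). One model covered the 4 groups, and the contrast was the mean of the siNEG and siMMP13 coefficients minus the untreated one. P-values were adjusted by Benjamini-Hochberg over the 196 genes and called under 0.05. SE values came from log2(normalized count + 1) within groups. A sample lay above background for a gene when its count exceeded the lane's negative-control mean plus 2 SD. The fit was tested on simulated counts. The comparison, members, gene lists and naming rule were chosen with earlier results of these data known. The rule named the called genes, the 2 members of each list with the smallest p, and a set of inflammation genes. C7, named by no rule, is marked. One result of the rule is not reported here.

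No columns were identical. Scaling was varied (TMM, size factors of DESeq2, total count, and the housekeeping set less each gene), as were the filter (none, or over 50 counts) and background (negative-control mean subtracted). Other tests were DESeq2 1.42.0 (Wald) and limma 3.58.1 with a pseudocount of 1 or 10 or with array weights. Other designs were the 36 loaded samples alone, a replicate block, a covariate for Myl2 or for total count, omission of the 4 divergent libraries, and omission of each loaded sample. Cfd as a covariate, and TMM scaling without those 4 libraries, were added after seeing the data.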

Additional observations from a re-analysis of the deposited data

Results flagged for a closer look

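A few genes had pooled carrier values that averaged unlike siRNA groups, because the siMMP13 minus siNEG difference itself passed edgeR's quasi-likelihood test (12 samples each). On the log2 scale Traf2 differed by -0.246 ± 0.0627 (adjusted p = 0.043) and was higher with siNEG, with all 12 siNEG samples above the untreated median. Il1rap differed by -0.314 ± 0.0728 (adjusted p = 0.028) and Myc by -0.278 ± 0.0728 (adjusted p = 0.043). For each, all 12 siMMP13 samples lay below the untreated median, as did most siNEG samples. Tyrobp differed by 0.75 ± 0.174 (adjusted p = 0.0023) and Trem2 by 0.672 ± 0.181 (adjusted p = 0.028), with 11 of 12 and 10 of 12 siMMP13 samples above the untreated median, against 3 of 12 siNEG samples for each. Several of these calls depended on the settings. Traf2 was at -0.143 with TMM scaling (adjusted p = 0.30), -0.142 with DESeq2 size factors (adjusted p = 0.30) and -0.243 with the replicate block (adjusted p = 0.079), and its call was lost in 11 of 23 alternatives and without 15 of 36 single samples. The call was lost in 13 of 23 alternatives for Myc (-0.165 with TMM scaling), 6 for Il1rap (-0.204 with TMM scaling), 2 for Trem2 (scaling without Gusb and the replicate block) and 1 for Tyrobp (TMM scaling without the divergent libraries, 0.401). Single samples ended it 20 of 36 times for Myc, 4 for Il1rap, 3 for Trem2 (siMMP13 replicate 1, siNEG replicates 5 and 10) and 0 for Tyrobp.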

How the results depend on the processing

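Pooled carrier calls numbered 2 with housekeeping scaling. They numbered 1 with TMM scaling or DESeq2 size factors, 7 with total-count scaling, 17 with array weights, 7 with Myl2 and 6 with Cfd as a covariate, and 5 with TMM scaling without the divergent libraries. Leaving out single samples gave 2 to 4, the latter without untreated replicate 7. Ccl19 was called in all 24 other alternatives (0.55 to 0.86).

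Calls for siMMP13 against untreated joints (7) became 13 with TMM, DESeq2 or total-count scaling, 4 without Tubb5, 11 with the loaded samples alone, 17 with array weights, 19 with Myl2 and 40 with Cfd as a covariate, and 6 to 8 leaving out single samples. For siNEG (3) edgeR called 0 with TMM (20 at an unadjusted p under 0.05), DESeq2 size factors (21), total-count scaling (19), without Gusb (13) or Tubb5 (15) and with total count as a covariate (30), whereas DESeq2's Wald test called 3, limma 2 and array weights 7; leaving out single samples gave 1 to 4. Between the siRNAs (12), calls were 3 without Gusb or Hprt, 2 without Tubb5, 4 with no filter, with the loaded samples alone or with TMM without divergent libraries, 5 without divergent libraries, 40 with total count as a covariate and 2 to 13 leaving out single samples. The cause of these moves was not tested.

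Samples of the loaded groups share only a replicate number: over 36 same-numbered pairs the correlation of deviations from the group means ran from -0.81 to 0.68 (median 0.05), and 4 of 36 samples matched their own number best. The replicate block left the pooled calls at 2 (Ccl19 0.74) and moved the calls between the siRNAs from 12 to 2. No other pooled call changed with it.

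Of 2876 alternatives for 48 named genes, 41 turned the direction, all of genes that were not called. The 2876 include Myl2 and Cfd each fitted with its own level as the covariate. There the difference is near 0 by construction, so its direction carries no information. Total-count scaling gave Tlr7 -0.018. Without Gapdh, Ccr7 was 0.0012; without Pgk1, Ccr7 was 0.015 and Trem2 0.0016. With limma, Arg1 was -0.20 and Mmp3 -0.0071 (pseudocount 1), and -0.15 and -0.0044 (pseudocount 10). Array weights gave Arg1 -0.053, Il1b -0.016, Trem2 0.0052 and Ccr7 0.0031. Arg1 was -0.048 with the replicate block, and Trem2 was 0.00087 with carrier samples as 1 group. With Myl2 as a covariate Ptgs2 was 0.095, Trem2 0.025 and Ccr7 0.076. With total count as a covariate Irf3 was -0.061, Hif1a 0.048, Ptgs2 0.10 and Trem2 0.033. Without divergent libraries Hif1a was 0.052, Ptgs2 0.028, Trem2 0.022 and Ccr7 0.0057, and with TMM as well Hif1a was 0.00085. With Cfd as a covariate Ccl21a was -0.087, Nod2 -0.066, Pdgfa -0.070, Il1rn -0.010, Tlr7 -0.11, Arg1 -0.72 and Mmp3 -0.32. Leaving out single samples gave ranges that crossed 0 for Tlr7 (-0.0070 to 0.15), Ptgs2 (-0.18 to 0.071), Arg1 (-0.19 to 0.28), Trem2 (-0.094 to 0.090) and Ccr7 (-0.084 to 0.012).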
